A study of Mus musculus with 20 samples.

Results

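Acute-phase and complement proteins are described here through 9 genes measured by TRAP–seq in adipocyte ribosomes of mouse epididymal adipose tissue (epiAT): Saa3, Saa1, Hp, Lcn2, Orm1, Serpina3n, C3, C4b and Cfb. They were chosen by symbol, as the rows of the count table whose Ensembl identifier maps to these names, and are 9 of the 46078 genes in the table. All 9 had enough counts to be tested among 21464 genes.

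TRAP (translating ribosome affinity purification) pulls down tagged ribosomes and sequences the RNA bound to them. All 20 mice were AdipoERCre x NuTRAP mice on a C576BL6 background (as the labels spell it), in which a tamoxifen-inducible Cre under the Adipoq promoter switches on a green fluorescent ribosome tag in adipocytes, and the chow controls carried the same alleles. Tamoxifen was given before the diets began. In the short arm, C mice stayed on chow until 18 weeks of age (n = 3), and H mice of the same age had eaten a high-fat diet (HFD) for 12 weeks (n = 3). HC mice were put on chow for 8 weeks after 12 weeks of HFD and were 26 weeks old, like their chow controls CC_s (n = 3 each). In the long arm, HH mice had 25 weeks of HFD and were 31 weeks old, like their chow controls CC_l (n = 2 each), and HHC mice had 25 weeks of HFD and then 8 weeks of chow and were 39 weeks old, like their controls CCC (n = 2 each). The return to chow is the weight loss (WL) of the study, and the question was which diet-induced changes in adipocytes outlast it. Per the study's methods, the controls of the HFD period ate a low-fat chow. In the WL period the WL groups and their controls ate another chow, so CC_s and CCC had also changed diet. The identifiers in the sample descriptions carry a different prefix in each arm, so arm and prefix cannot be told apart.

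The acute-phase response is the change in secreted plasma proteins that follows inflammation. Interleukin-6 signals to it through STAT3, interleukin-1 and tumour necrosis factor through NF-kB, and C/EBP factors act on many of its genes. The liver is the main source, but adipocytes and other cells of adipose tissue also make several of these proteins. Complement is a cascade of plasma proteases that starts from antibody and C1q (classical pathway), from sugars and lectins (lectin pathway) or from C3 itself with factors B and D (alternative pathway). All routes meet at the cleavage of C3, and factor D, made by the gene Cfd and also called adipsin, is one of the best-known adipocyte secretions. TRAP–seq reports ribosome-bound RNA and not the secreted protein.

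The members differ in role and position (mm10, GENCODE vM21 annotation). Hp on chromosome 8 (109575128 to 109579172) encodes haptoglobin, which binds free haemoglobin. Orm1 on chromosome 4 (63344560 to 63348163) encodes the carrier protein orosomucoid. Serpina3n on chromosome 12 (104406729 to 104414329) encodes a serine protease inhibitor. Saa3 (46711998 to 46715700) and Saa1 (46740497 to 46742980) lie near each other on chromosome 7 and encode serum amyloid A apolipoproteins. Lcn2 on chromosome 2 (32384633 to 32388252) encodes lipocalin 2, which sequesters bacterial iron carriers. C3 (57203970 to 57228136), C4b (34728380 to 34743882) and Cfb (34856374 to 34862518) all lie on chromosome 17 and encode the central complement component, a component of the classical and lectin pathways, and factor B of the alternative pathway.

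The stretch just before the transcription start is shown for 3 members that stand for the patterns described here: Serpina3n, higher in all HFD mice than in their controls, and Saa3 and C3, which varied together. Each run is the 250 bases upstream of the RefSeq start in GRCm38.p6, written in the direction of the gene, with a match to the C/EBP motif TTGCNNAA in capitals. The windows are chr7:46715677-46715926 (minus strand) for Saa3, chr17:57228137-57228386 (minus strand) for C3 and chr12:104406458-104406707 (plus strand) for Serpina3n.
Saa3: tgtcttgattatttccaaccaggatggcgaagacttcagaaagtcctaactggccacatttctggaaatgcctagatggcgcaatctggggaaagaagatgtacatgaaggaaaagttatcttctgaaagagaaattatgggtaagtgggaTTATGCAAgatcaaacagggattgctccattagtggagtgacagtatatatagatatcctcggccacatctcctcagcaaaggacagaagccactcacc
C3: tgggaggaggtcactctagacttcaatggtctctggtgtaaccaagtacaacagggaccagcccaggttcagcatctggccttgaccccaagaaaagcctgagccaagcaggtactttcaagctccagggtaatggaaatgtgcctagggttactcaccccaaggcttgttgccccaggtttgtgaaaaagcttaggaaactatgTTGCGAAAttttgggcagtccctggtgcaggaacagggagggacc
Serpina3n: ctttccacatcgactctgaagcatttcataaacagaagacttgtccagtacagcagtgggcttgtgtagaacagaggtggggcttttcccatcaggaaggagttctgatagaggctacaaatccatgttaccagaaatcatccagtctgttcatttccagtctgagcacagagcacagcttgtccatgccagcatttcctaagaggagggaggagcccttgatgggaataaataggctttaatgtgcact

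RefSeq windows of the 250 bases before the start were found for 5 of the 9 members: Lcn2, Saa3, Saa1, Serpina3n and C3. TTGCNNAA, searched on both strands, was present in those of Lcn2, Saa3, Saa1 and C3, with no match in that of Serpina3n. In Saa3 it lay 99 to 92 bases before the start, on the strand opposite to the gene, and in C3 it lay 45 to 38 bases before the start, on the strand of the gene. Of 32851 windows of the same length, 9.56% held it. Neither TTCNNNGAA, a STAT3 motif held by 7.02% of the windows, nor the NF-kB consensus, held by 7.25%, was found in any of the 5. A match describes letters only and is not a binding site.

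Counts divided by the library total and multiplied by 1000000 (CPM, scaled between libraries by TMM, the trimmed mean of M-values) are given per mouse, in the order of the mouse numbers in the labels. Libraries held 10710277 to 36738954 counts, and 3 counts corresponded to 0.0817 to 0.280 CPM. Adipocyte markers were present in every library, with Adipoq (adiponectin) at 493 to 8796 CPM and Plin1 (perilipin 1) at 84.9 to 556 CPM. No input or unbound RNA is among the libraries, so the purity of the pulldown was not measured. The sum of 12 adipocyte markers was 31160 and 35316 CPM in HH and 72187 and 82667 CPM in CC_l. In H it was 32803 to 60190 CPM, within the range of C (32371 to 143946 CPM). Mouse 3 of HC had the lowest sum (19781 CPM), and the chow mouse 2 of CCC was at 37581 CPM. Transcripts of other cells were also present. A sum of 16 macrophage markers was 342 and 612 CPM in CC_l and 4703 and 6319 CPM in HH. In C it ranged from 326 to 605 CPM. Spermatid transcripts (8 markers) summed to 3666 CPM in mouse 1 of CC_l and to 586 CPM in mouse 3 of HC, against 159 CPM or less in the others. Epididymal epithelium transcripts (10 markers) summed to 1819 CPM in mouse 1 of C and 1663 CPM in mouse 2 of H.

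**Figure D1:**
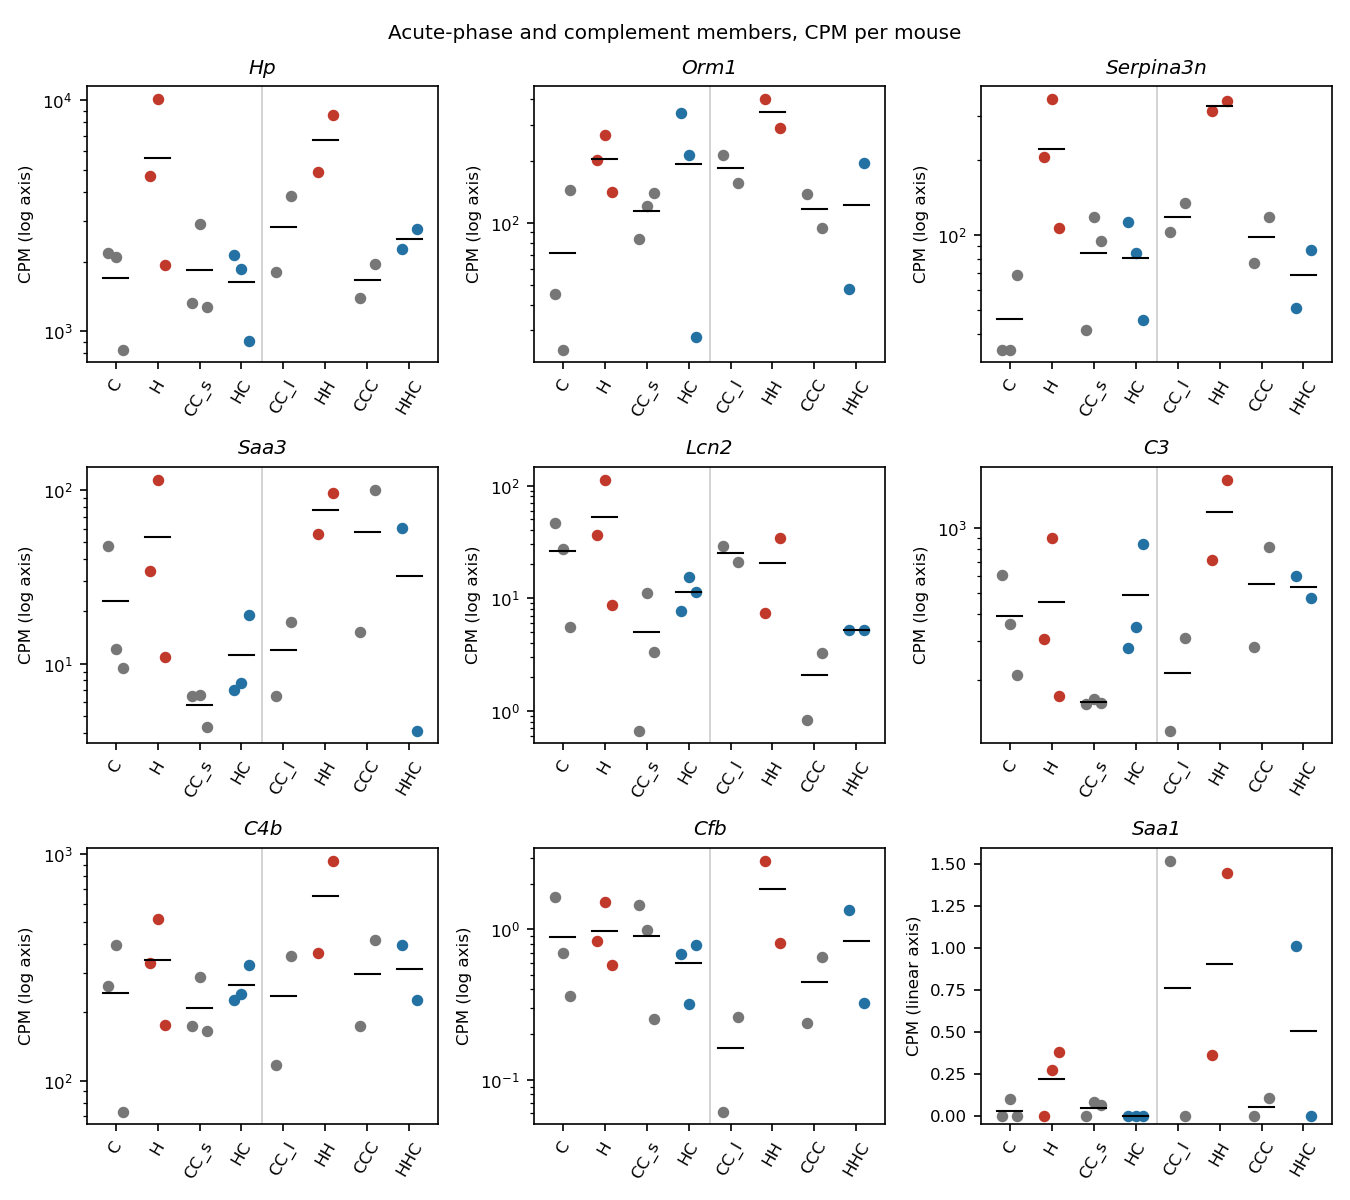
CPM of each of the 9 members in each of the 20 mice, by group (grey, chow control; red, HFD; blue, weight loss), with a black line at the group mean and a vertical line between the short and the long arm. The axis is logarithmic except for Saa1, which is at 0 in many mice. Serpina3n stands above its controls in both HFD groups, and Saa1 never exceeds 1.52 CPM.

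Haptoglobin was by far the most abundant member. Per kilobase of exon, Hp averaged 1059 CPM in C (516 to 1354), above Orm1 at 92.2 (31.1 to 187) with no overlap. C3 (76.2), C4b (42.9), Serpina3n (22.3), Lcn2 (10.1) and Saa3 (8.85) followed, and in this order each neighbour overlapped the next. In HH the order was Hp (4183 CPM per kilobase), Orm1 (448), C3 (231), Serpina3n (159), C4b (114), Saa3 (29.3) and Lcn2 (7.87). Levels are compared between genes only on this per-kilobase scale, and every other level is in CPM.

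A pair of members could not be followed as levels. Saa1 had 127 counts over all 20 libraries, 50 of them in mouse 1 of CC_l, and was at 0 in 10 mice, among them all 3 HC mice. No fold change is given for it. Cfb had 361 counts in all, and 79.5% of its exonic bases also lie in Gm20547, an annotated readthrough gene on the same strand that itself had 0 counts. Reads assigned to more than 1 gene may have been dropped in the counting, the setting of which is not given in the sources used here, so the counts may come from only the remaining 20.5% of the gene. Cfb CPM were 2.87 and 0.817 in HH and 0.0610 and 0.262 in CC_l, where it had 2 and 4 counts. The HH and CC_l mice did not overlap, with an adjusted p of 0.187 in edgeR's quasi-likelihood test, and no fold change is given.

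After HFD, the comparison of H with C asked which members had changed after 12 weeks of diet. Following the study's own thresholds, a gene was called differentially expressed where edgeR's quasi-likelihood test gave it a p below 0.01 before adjustment and its log2 fold change was 1 or more in size. By this rule 1 of the 9 members, Serpina3n, was called up, against 3.57% of all genes tested, and 0 were called down, against 2.92%. The fitted log2 fold change was above 0 for all 9, with a median of 1.21, while the median over all tested genes was −0.15. The member counts and medians, here and below, include Saa1 and Cfb, which could not be followed as levels. In 1 of the 9 every H mouse was above every C mouse, against 13.4% of all genes.

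Serpina3n rose in H. Its CPM were 34.6, 34.5 and 69.1 in C and 205, 351 and 106 in H. The lowest H mouse lay above the highest C mouse. The log2 fold change was 2.26 ± 0.51 (SE, n = 3 and 3), a 4.79-fold higher level, with a nominal p of 0.000346 and an adjusted p of 0.0292 over all genes. It was the only member with an adjusted p under 0.05 in any of the 4 comparisons. Of all tested genes, 455 had one in H and 445 in HH, but 0 in HC and 0 in HHC. The call held with each mouse of C or H left out, with log2 fold changes between 1.75 and 2.67.

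Haptoglobin and orosomucoid were higher on average in H but did not pass the rule. Hp CPM were 2175, 2098 and 829 in C and 4712, 10146 and 1927 in H. Mouse 3 of H lay within the C range, while mice 1 and 2 were above it. In mouse 2 of H, Hp alone made up 1.16% of all counts in the library, against 0.0634 to 0.243% in C. The log2 fold change of Hp was 1.72 ± 0.67 (adjusted p = 0.198), and without mouse 2 of H it was 0.96. Orm1 CPM were 45.3, 24.1 and 145 in C and 203, 268 and 142 in H, where mouse 3 of C lay just above the lowest H mouse. Its log2 fold change was 1.52 ± 0.74 (adjusted p = 0.304), and 2.56 without mouse 3 of C, when it passed the rule.

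For the remaining members the H and C mice overlapped widely. Saa3 CPM were 47.6, 12.2 and 9.40 in C and 34.1, 115 and 10.9 in H. Lcn2 CPM were 46.6, 27.3 and 5.55 in C and 36.7, 113 and 8.64 in H. For both, mouse 2 of H was the highest of all the short-arm mice. The log2 fold changes were 1.21 ± 0.93 for Saa3 and 0.99 ± 0.92 for Lcn2 (adjusted p = 0.535 and 0.614), and they were −0.03 and −0.22 without that mouse. C3 was at 604, 361 and 211 CPM in C and 308, 896 and 168 in H, and C4b at 262, 398 and 72.8 CPM in C and 330, 518 and 176 in H. Their log2 fold changes were 0.22 ± 0.64 and 0.48 ± 0.61 (adjusted p = 0.901 and 0.722), and that of C3 was −0.72 without mouse 2 of H.

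After 25 weeks of HFD, 1 of 9 members, C3, was called up in HH against CC_l (background 4.92% of genes) and 0 were called down (background 1.88%). At an adjusted p under 0.05, 0 members passed, while 4, among them Cfb with its few counts, had a nominal p under 0.05. The median log2 fold change of the members was 1.47, against −0.23 over all tested genes. Both HH mice were above both CC_l mice for 7 of the 9 members, the exceptions being Lcn2 and Saa1, but with 2 mice a group 26.3% of all tested genes did the same. Cfb, with 2 and 4 counts in CC_l, is among the 7. The smallest exact permutation p possible was 0.33 for 2 against 2 mice and 0.1 for 3 against 3, so such separations were not tested further.

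C3 rose in HH by the nominal rule. Its CPM were 116 and 311 in CC_l and 709 and 1670 in HH. The log2 fold change was 2.48 ± 0.83 (adjusted p = 0.135), a 5.57-fold higher level, with an unadjusted edgeR p of 0.00839. The call depended on single mice: without mouse 1 of CC_l, which carried spermatid RNA, the log2 fold change was 1.94 and the call was lost, and without mouse 2 of HH it was 1.75 and the call was lost as well. Without mouse 2 of CC_l it was 3.39. In a fit of only the HH and CC_l mice C3 was not called either (2.58), while Saa3 and Serpina3n were. C4b, which acts just upstream of C3, was at 117 and 354 CPM in CC_l and 367 and 937 in HH. The lower HH mouse was barely above the higher control, and the log2 fold change was 1.47 ± 0.76 (adjusted p = 0.327). It was 0.65 without mouse 2 of HH and 2.50 without mouse 2 of CC_l. Part of the C4b transcript is shared with its near-identical neighbour C4a (34.6% of its 50-base words), so reads may have been split or lost between them.

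Of the 6 acute-phase members, Saa3, Serpina3n, Hp and Orm1 were higher in both HH mice than in both CC_l mice, without passing the rule. Saa3 was at 6.47 and 17.4 CPM in CC_l and 56.2 and 96.7 in HH (log2 fold change 2.68 ± 1.19, adjusted p = 0.259). Serpina3n was at 102 and 134 CPM in CC_l and 312 and 344 in HH (1.48 ± 0.61, adjusted p = 0.227). The 2 HH values of Serpina3n were close to each other and to the highest H mouse. Hp was at 1810 and 3856 CPM in CC_l and 4860 and 8574 in HH (1.25 ± 0.81, adjusted p = 0.430), and Orm1 at 215 and 157 CPM in CC_l and 404 and 291 in HH (0.90 ± 0.89, adjusted p = 0.627). Lcn2 went the other way on average, with 29.1 and 21.0 CPM in CC_l and 7.39 and 33.9 in HH (−0.28 ± 1.12, adjusted p = 0.927).

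**Figure D2:**
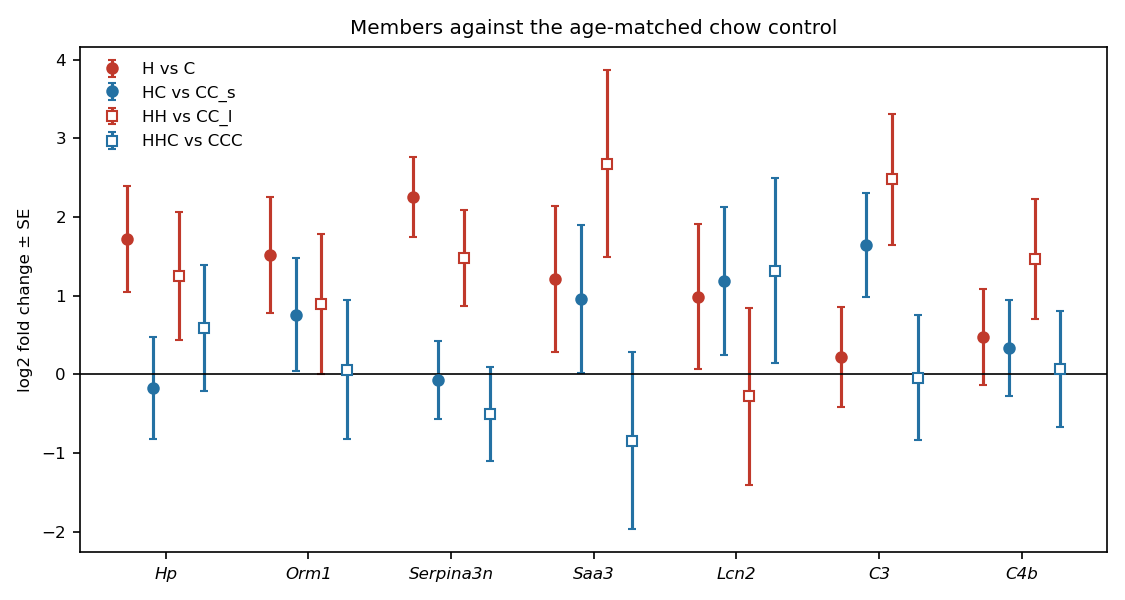
Log2 fold change of 7 members against the age-matched chow control, with its standard error (circles, short arm; open squares, long arm; red, HFD; blue, weight loss). Serpina3n is at 2.26 and 1.48 in the 2 HFD comparisons and at −0.07 and −0.50 after weight loss, while C3 is at 1.64 in HC and −0.04 in HHC.

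After WL, 0 of 9 members were called in HC against CC_s, up or down, where 1.57% of genes were called up and 0.172% down. At a nominal p under 0.05 there was 1, C3, and DESeq2 also called C3. No gene of all those tested reached an adjusted p under 0.05 in HC or in HHC. Serpina3n in HC (112, 84.2 and 45.5 CPM) lay among its controls (41.6, 118 and 94.4 CPM), with a log2 fold change of −0.07 ± 0.49. Hp in HC (2134, 1849 and 910 CPM) also overlapped CC_s (1318, 2899 and 1274 CPM), with −0.17 ± 0.65. Orm1 spread from 27.8 CPM in mouse 3 of HC to 343 in mouse 1 and enclosed its controls (83.9 to 140 CPM).

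C3 and Saa3 were the 2 members with all HC mice above all CC_s mice, against 8.01% of genes. C3 was at 154, 163 and 156 CPM in CC_s, close together, and at 281, 351 and 839 in HC. The log2 fold change was 1.64 ± 0.66 (adjusted p = 0.544), and 1.00 without mouse 3 of HC and mouse 1 of CC_l. Mouse 3 of HC, the highest for C3, had the lowest Adipoq of all (493 CPM) and a macrophage marker sum of 2309 CPM, against 773 and 845 CPM in the other HC mice. Saa3 was at 6.49, 6.55 and 4.31 CPM in CC_s and 7.01, 7.71 and 19.0 in HC (0.96 ± 0.94, adjusted p = 0.793), so that 2 of the 3 HC mice were just above the highest control. Lcn2 was at 0.662, 11 and 3.30 CPM in CC_s and 7.63, 15.3 and 11.4 in HC (1.19 ± 0.94, adjusted p = 0.735), and the log2 fold change was 2.53 without mouse 2 of CC_s and 0.68 without mouse 1. C4b was at 174, 286 and 166 CPM in CC_s and 226, 242 and 324 in HC (0.34 ± 0.61, adjusted p = 0.910).

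In HHC against CCC, 0 of 9 members were called, where 0.447% of genes were called up and 2.67% down. None had a nominal p under 0.05, and DESeq2 also called 0. Serpina3n was at 77.2 and 118 CPM in CCC and 50.8 and 86.7 in HHC (−0.50 ± 0.60, adjusted p = 0.805). C3 was at 284 and 818 CPM in CCC and 598 and 473 in HHC (−0.04 ± 0.79), and C4b at 174 and 419 in CCC and 398 and 226 in HHC (0.07 ± 0.74). Saa3 differed more between the 2 mice of a group than between groups, with 15.3 and 99.8 CPM in CCC and 60.2 and 4.09 in HHC. Orm1 was at 139 and 94.6 CPM in CCC and 47.9 and 196 in HHC. Both HHC mice were above both CCC mice for 2 members, Hp and Lcn2, against 8.49% of genes. Hp was at 1388 and 1947 CPM in CCC and 2255 and 2776 in HHC (0.59 ± 0.80, adjusted p = 0.836), and Lcn2 at 0.836 and 3.29 CPM in CCC and 5.20 and 5.17 in HHC (1.32 ± 1.18, adjusted p = 0.725).

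Whether the effect of HFD differed from the effect after WL was tested as an interaction, and no member reached an adjusted p under 0.05. In the short arm 0% of all genes did, and 1 member had a nominal p under 0.05: the Serpina3n effect in H exceeded that in HC by 2.33 ± 0.70 on the log2 scale (adjusted p = 0.325). DESeq2 placed this difference under an adjusted p of 0.05. In the long arm 0.815% of all genes passed, and 3 members had a nominal p under 0.05. The differences between the HH and the HHC effect were 3.53 ± 1.63 for Saa3, 2.52 ± 1.13 for C3 and 1.98 ± 0.85 for Serpina3n (adjusted p = 0.308, 0.295 and 0.273). Between the H and the HH effect, which come from different arms, 0% of all genes passed, and the C3 effect was 2.26 ± 1.03 smaller in H on the log2 scale (adjusted p = 0.854). Between the HC and the HHC effect 0% of all genes passed and no member had a nominal p under 0.05.

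Among chow mice, Lcn2 was lower on average in the older group of each arm. Its CPM were 5.55 to 46.6 in C and 0.662 to 11 in CC_s (log2 difference −2.40 ± 0.97, adjusted p = 0.411), and 29.1 and 21.0 in CC_l against 0.836 and 3.29 in CCC (−3.59 ± 1.26, adjusted p = 0.362). The share of all genes separated between the chow groups of the long arm was not counted, so the lack of overlap there is not read further. C3 and Saa3 moved in opposite directions in the 2 arms, with log2 differences of −1.31 ± 0.66 and −1.99 ± 0.96 from C to CC_s and of 1.37 ± 0.80 and 2.27 ± 1.18 from CC_l to CCC (adjusted p of 0.450 to 0.517). No member passed an adjusted p under 0.05 in these comparisons. The older chow groups had also been switched to another chow, so age and type of chow cannot be told apart here.

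Which members varied together across the 20 libraries is described here by Pearson's r of log2 CPM without a test, since the libraries share groups, arms and cell makeup. C3 and C4b went together (r = 0.80, Spearman's rho = 0.80), with r = 0.64 in the 12 short-arm mice and 0.93 in the 8 long-arm mice. Saa3 was most like C3 (r = 0.80, rho = 0.79), with 0.80 and 0.77 in the arms. Serpina3n and Orm1 were most like each other (r = 0.81, rho = 0.75), with 0.80 and 0.81 in the arms, and Hp was most like Serpina3n by r (0.78, rho = 0.68) and C4b by rho (r = 0.74, rho = 0.72). Saa3 and C4b also went together (r = 0.72, rho = 0.80). Over all 20 libraries Lcn2 was most like Hp, but less so (r = 0.61, rho = 0.50), with 0.71 and 0.64 in the arms. In the short arm its r was higher with Saa3 (0.81, rho = 0.87) and C3 (0.73, rho = 0.85). In the long arm its r with each of these was 0.01.

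The members also varied with transcripts of other cell types. In bulk ribosome preparations fewer cells of a type and less RNA per cell cannot be told apart. C3, C4b and Saa3 were higher where the macrophage marker sum was higher (r = 0.83, 0.75 and 0.77) and lower where the adipocyte marker sum was higher (r = −0.73, −0.70 and −0.71). Hp had r = 0.65 with the macrophage, 0.69 with the progenitor and fibroblast and −0.37 with the adipocyte sum. Orm1 had r = 0.22 with the macrophage and 0.31 with the adipocyte sum. Serpina3n had r = 0.58 with the macrophage, 0.63 with the progenitor and fibroblast and −0.17 with the adipocyte sum, and without the 2 mice farthest from the median macrophage sum its macrophage r was 0.34, against 0.49 for Hp and 0.76 for C3. The macrophage sum ranged from 960 to 4662 CPM in H, 773 to 2309 in HC, 351 to 491 in CC_s, 342 to 612 in CC_l, 1132 to 1298 in CCC and 1012 to 2505 in HHC. Of its 16 markers, 11 were called up in H, 9 in HC, 14 in HH and 0 in HHC, where 1 was called down. Adgre1, the macrophage surface marker F4/80, was at 6.04 and 9.82 CPM in CC_l and 116 and 240 in HH. Ptprc, the pan-leukocyte marker CD45, was at 13.5 and 38.3 CPM in CC_l and 172 and 174 in HH. The part of these cells in the members' values was not tested.

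**Figure D3:**
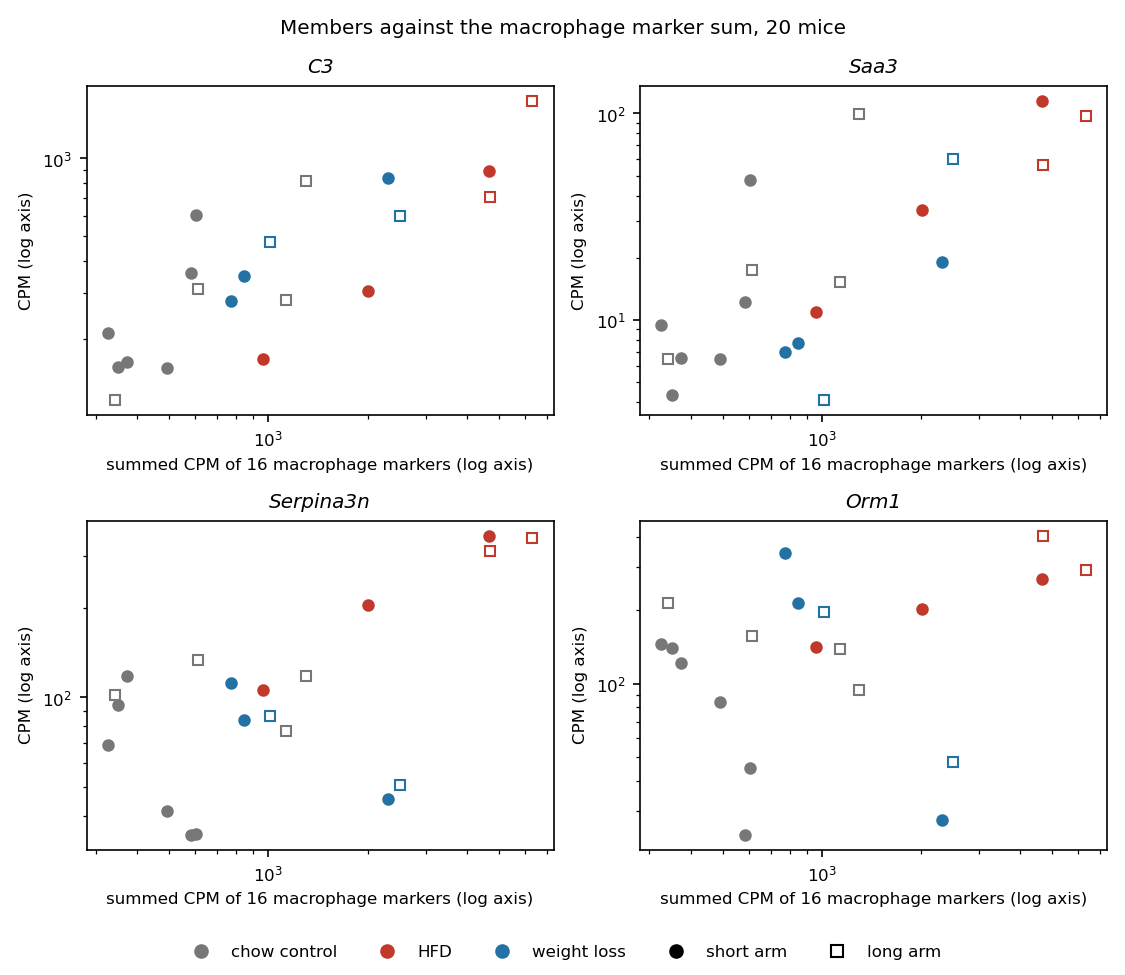
CPM of C3, Saa3, Serpina3n and Orm1 against the summed CPM of 16 macrophage markers in each of the 20 mice, on log axes (grey, chow control; red, HFD; blue, weight loss; filled circles, short arm; open squares, long arm). C3 and Saa3 climb with the marker sum (r = 0.83 and 0.77), and Serpina3n and Orm1 less closely (r = 0.58 and 0.22). Mouse 2 of H and mice 1 and 2 of HH, with sums of 4662 to 6319 CPM, are at 351, 312 and 344 CPM for Serpina3n. For Orm1 they are at 268, 404 and 291 CPM. The 2 weight-loss mice with marker sums of 2309 and 2505 CPM are lower for Serpina3n (45.5 and 50.8 CPM) and Orm1 (27.8 and 47.9 CPM).

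Other cell types moved with the members in their own ways. The sum of 12 progenitor and fibroblast markers was 7062 and 10181 CPM in HH and 696 and 1231 CPM in CC_l, and its r was 0.80 with C3 and 0.76 with Saa3. Of these markers 7 were called up in H and 10 in HH, among the latter Pdgfra (64.0 against 13.4 CPM on average). Endothelial markers were higher too, with Pecam1 at 48.2 to 176 CPM in C and 356 to 570 in H, and 5 of 10 endothelial markers called up in H and 9 in HH. In HHC the endothelial sum was 111 and 166 CPM, against 367 and 832 CPM in CCC. The progenitor and fibroblast sum was 1059 and 1663 CPM in HHC against 2252 and 3537 in CCC. The mesothelial sum was 105 and 187 CPM in HHC against 201 and 687 in CCC. The mesothelial sum was highest in mouse 2 of CCC (687 CPM) and mouse 1 of C (665 CPM), also the control mice highest for Saa3 and C3. They had Msln at 52.9 and 42.5 CPM and Upk3b at 128 and 92.6 CPM. Over the 20 libraries the r of the mesothelial sum was 0.39 with Saa3 and 0.53 with C3. Without the 2 farthest mice these were 0.12 and 0.48. With the epididymal epithelium sum, Lcn2 had an r of 0.65 over the 20 libraries (0.47 without the 2 farthest mice) and 0.73 in the short arm. Saa3 had 0.27 over all libraries but 0.87 in the short arm (0.71 without the 2 farthest), where mouse 2 of H was high for both members and for that sum. The part of these cells was not tested either.

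Hepatocytes and neutrophils are the textbook sources of several members, and their markers behaved differently. The sum of 10 hepatocyte markers, mostly albumin (Alb) except in mouse 3 of HC, was lower in HH (7.48 and 17.0 CPM) than in CC_l (138 and 172 CPM), and 14.2 to 36.6 CPM in H against 20.1 to 175 CPM in C. The part of hepatocyte RNA in the members' values was not tested. S100a9, a granulocyte alarmin that neutrophils hold in large amounts, was at 1.19 CPM or less in every mouse. Its partner S100a8 was called up in H, at 52.4 to 228 CPM against 0.871 to 8.78 CPM in C. Of 12 neutrophil markers 8 could be tested, and in H 1 was called up and 1 down. Their sum was 7.84 to 15.1 CPM in C and 55.5 to 234 CPM in H, where S100a8 made up most of it, 30.7 and 49.9 CPM in CC_l and 19.9 and 119 CPM in HH. Over the 20 libraries its r was 0.72 with Hp, 0.73 with Serpina3n and 0.63 with Orm1, or 0.55, 0.63 and 0.65 without the 2 farthest mice. In the 12 short-arm mice it was 0.75, 0.87 and 0.73, and in the 8 long-arm mice 0.72, 0.48 and 0.35. With Lcn2 the r of this sum was 0.54 (0.30 without the 2 farthest mice), and 0.53 and 0.70 in the arms. S100a8 was also 112 of the 119 CPM in mouse 2 of HH and 46.9 of 52.9 in mouse 1 of HC, but 0.871 of 14.3 in mouse 1 of C. The part of neutrophil RNA in these members was not tested.

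The genes most like the members were sought by the correlation of log2 CPM with the mean of the 9 standardised members over the 20 libraries. This mean gives Saa1 and Cfb, with few counts, the same weight as Hp. It also joins members that did not vary together, such as Orm1 with C3 (r = −0.05) and Saa3 (−0.01). A gene like the mean need not be like any single member. Slc35f5 (r = 0.92), Pdia3 (0.91), Tpp1 (0.90), Man2b1 (0.90), Ctsa (0.89), Tmem176b (0.89), Ifnar2 (0.89), Nrcam (0.88), Tmem176a (0.88) and Ms4a6c (0.88) came first. Pdia3 encodes a protein-folding enzyme of the endoplasmic reticulum, and Tpp1, Man2b1 and Ctsa encode lysosomal enzymes. In the 8 long-arm mice, the r of Tmem176a fell to 0.08 without the 2 farthest mice, while those of Pdia3 and Ifnar2 were 0.86.

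The wider acute-phase and complement system was read from lists of 109 further genes, of which 107 were in the table and 95 could be tested. In H, 13 of the 95 were called up and 3 down, against 3.57% and 2.92% of all tested genes, with a median log2 fold change of 0.57. In HH, 23 were called up and 2 down, against 4.92% and 1.88% of all genes, with a median of 1.23. In HC, 7 were called up and 0 down, against 1.57% and 0.172% (median 0.55). In HHC 1 was called up and 4 down, against 0.447% and 2.67% (median −0.11). The medians over all tested genes were −0.15, −0.23, 0.27 and −0.06 in H, HH, HC and HHC. In all, 36 of the genes were called in at least 1 of the 4 comparisons. The lists share C1qa, C1qb, C1qc, Itgam and Cd163 with the macrophage markers, and the part of macrophage RNA in these counts was not tested.

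Of the acute-phase proteins outside the members, 18 of 25 could be tested, and 4 were called up in H, 2 in HH, 0 in HC and 1 in HHC, with 1 called down in HH. Lrg1, a secreted leucine-rich glycoprotein of the acute phase, was the clearest. Its CPM were 108, 118 and 94.7 in C and 772, 842 and 305 in H, without overlap (log2 fold change 2.58 ± 0.59, adjusted p = 0.0305). It averaged 1213 CPM in HH and 249 in CC_l (2.29 ± 0.71, called, adjusted p = 0.107). In HC it was at 177 CPM against 165 in CC_s (0.10 ± 0.55) and in HHC at 141 against 224 in CCC (−0.67 ± 0.68), so that its averages followed the course of Serpina3n. Of 27 tested inducers and signalling genes of the response, 2 were called up in H and 2 in HH, and 0 in the other comparisons.

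In the classical pathway, genes of the first step rose. C1qb and C1qc encode chains of the recognition molecule C1q, which macrophages make in large amounts, and both are among the 16 macrophage markers. They were at 22.5 and 28.8 CPM on average in C and 224 and 116 CPM in H. Their log2 fold changes were 3.31 ± 0.57 and 2.00 ± 0.58 (adjusted p = 0.00801 and 0.0828). In HH they were 3.96 ± 0.72 and 3.34 ± 0.75 (adjusted p = 0.0187 and 0.0309). C1qb was also called in HC, at 72.4, 71.6 and 148 CPM against 21.2 to 26.1 CPM in CC_s (2.04 ± 0.54, adjusted p = 0.536). In all, 3 of the 14 tested classical and lectin pathway genes were called up in H, 7 in HH and 1 in HC. Colec12, a collectin scavenger receptor, was called in HH (2.30 ± 0.51, adjusted p = 0.0302). C2, the protease that joins C4b in the convertase, fell in H, from 132, 80.1 and 65.7 CPM in C to 13.2, 22.1 and 12.4 CPM (−2.54 ± 0.50, adjusted p = 0.0148). As with Cfb, the C2 counts may be partial: 42.8% of its exonic bases lie in Gm20547.

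Adipsin went against the members. Cfd was at 12088, 9652 and 10132 CPM in C and 940, 706 and 709 CPM in H, a fall by 3.76 on the log2 scale (SE 0.69, adjusted p = 0.00996). In HH it was at 3013 and 1386 CPM and in CC_l at 10078 and 13153 CPM (−2.40 ± 0.80, called, adjusted p = 0.132). After WL, HC mice (5404, 3242 and 1666 CPM) overlapped CC_s mice (3118, 8668 and 4601 CPM). Both HHC mice (3243 and 4741 CPM) stayed below both CCC mice (7823 and 17430 CPM), with −1.66 ± 0.78 (adjusted p = 0.460), which did not pass the rule. Of the 4 alternative-pathway genes of the list, 2 were called up in HC and in HH and 0 in H and HHC, and Cfd was the 1 called down in H and HH. Cfd is also 1 of the 12 adipocyte markers of the sum used here.

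Of 10 complement inhibitors, 1 was called up in H, 4 in HH and 1 in HC, and 2 were called down in HHC. Serping1, the C1 inhibitor, was at 57.9, 68.6 and 47.7 CPM in C and 205, 523 and 96.8 in H (2.24 ± 0.52, adjusted p = 0.0326). It was also called in HH (3.28 ± 0.66, adjusted p = 0.0253) and in HC, where 194, 129 and 156 CPM stood above 40.8, 52.2 and 43.5 in CC_s (1.81 ± 0.51, adjusted p = 0.536). Cd55, the decay-accelerating factor, and Vtn, vitronectin, which binds the terminal complex, were called up in HH (2.00 ± 0.40 and 2.74 ± 0.63, adjusted p = 0.0253 and 0.0347). Vtn was called down in HHC, at 1.34 and 4.42 CPM against 10.0 and 21.4 in CCC (−2.43 ± 0.64, adjusted p = 0.216). Of 16 complement and acute-phase receptors, 3 were called up and 1 down in H, 6 up in HH, 3 up in HC and 2 down in HHC. C3ar1 and C5ar1, the receptors of the C3a and C5a fragments, rose in H (3.00 ± 0.72 and 2.00 ± 0.61, adjusted p = 0.0396 and 0.10) and HH (3.89 ± 0.91 and 3.96 ± 0.81, adjusted p = 0.0367 and 0.0253). Both were also called in HC (2.54 ± 0.71 and 1.97 ± 0.61, adjusted p = 0.536 for each). Itgax, a chain of complement receptor CR4, was called in H and HC (3.33 ± 0.80 and 2.94 ± 0.79, adjusted p = 0.0413 and 0.536). C3ar1, C5ar1 and Itgax are genes of myeloid cells, and the macrophage sums given with the members apply here too. Of 6 tested terminal-pathway genes, 0 were called in any comparison.

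**Figure D4:**
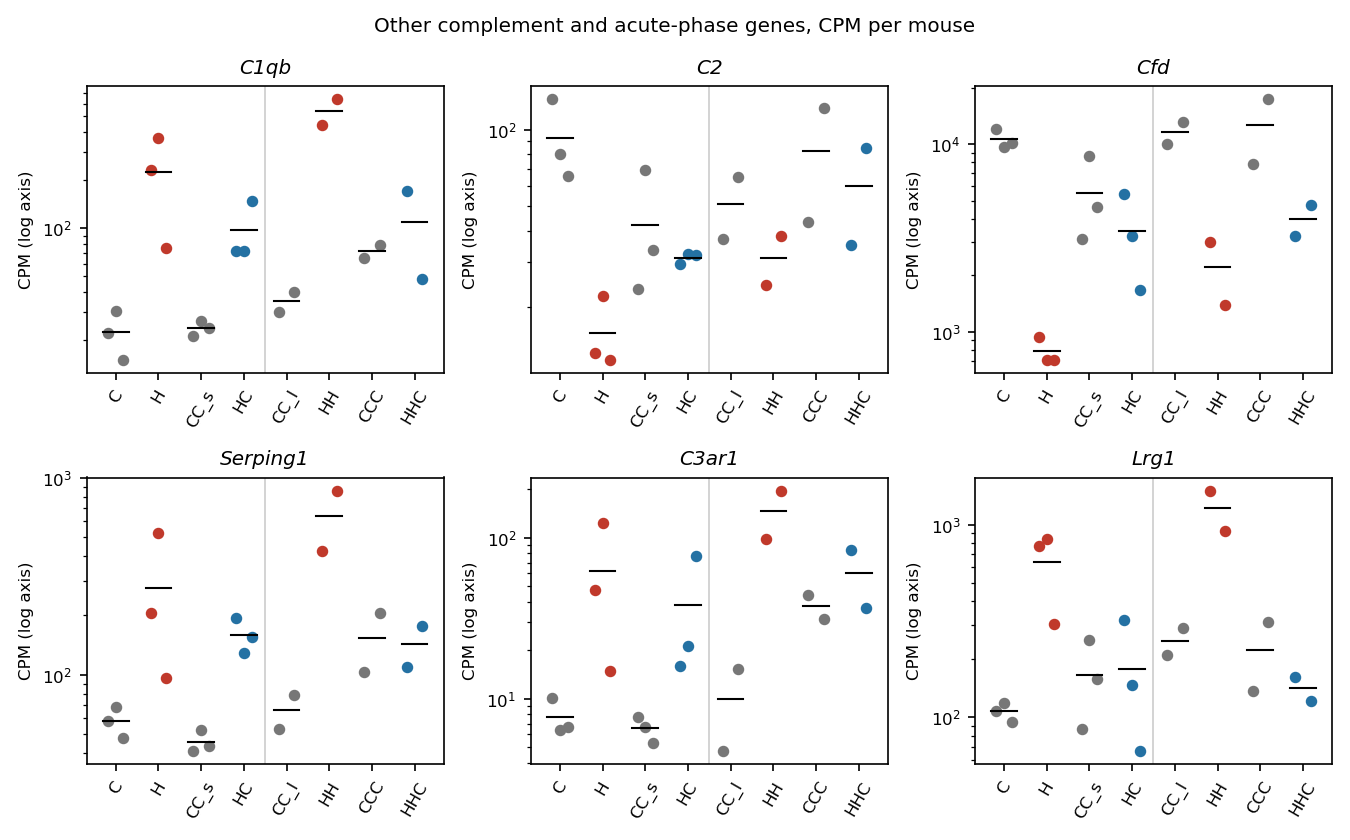
CPM of 6 other complement and acute-phase genes in each of the 20 mice, by group, on log axes (grey, chow control; red, HFD; blue, weight loss; black line, group mean). Cfd and C2 are lower in H than in C, while C1qb, Serping1, C3ar1 and Lrg1 are higher, and Lrg1 is back among its controls in HC.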

How the data were processed

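TRAP–seq libraries of epiAT adipocytes from 20 mice in 8 groups were analysed. Per the labels and the study's methods, the authors trimmed the reads (Trim Galore 0.6.6, after FastQC 0.11.9), aligned them to mm10 with HISAT2 2.2.1 and counted them per gene with featureCounts (Subread 2.0.1). The deposited values are raw read counts, without normalization, for 46078 genes. The annotation, strand setting and handling of read pairs are not given in the sources used here. Between 74.4% and 89.2% of the nonzero counts in a library were even, so halved counts were tried as an alternative. The protocol primes with oligo-dT and makes full-length cDNA.

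Symbols and positions came from GENCODE vM21 and promoters from RefSeq. The quasi-likelihood model of edgeR 4.0.16 (R 4.3.3) was fitted to all 20 libraries together, after filterByExpr and TMM scaling, with a common dispersion of 0.462. A gene was called below a nominal p of 0.01 where its log2 fold change was 1 or more in size. Adjusted p-values (Benjamini-Hochberg) cover all 21464 tested genes. Standard errors were obtained from the fold change and its test statistic. Log2 CPM for correlations used a prior count of 2. Alternatives were DESeq2 1.42.0, RLE size factors, no filter, a fit of only the compared groups, the likelihood ratio test, a replicate block and each mouse left out. In simulated counts for H against C (20486 genes), 193 of 200 genes changed 4-fold passed the filter and 84 were called, 0 in the wrong direction, beside 163 of 20293 unchanged genes.

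The members and lists were chosen with earlier results of these data known. The 9 members are named throughout. Of the pathway lists, the 12 called genes with the lowest p are named, with Cfd, and of the markers a fixed few. Replicates are separate mice per the labels. Paralog overlap was counted as shared 50-base words of transcripts.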

Additional observations from a re-analysis of the deposited data

How the results depend on the processing

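Of the log2 fold changes of 7 members in 4 comparisons, 187 of 210 recomputed under other settings, and 118 of 140 with a mouse left out, kept direction and side of the threshold. Members called in H against C numbered 2 with DESeq2 (Hp, Serpina3n), 3 without a filter and 2 with the likelihood ratio test, and 1 to 2 with a mouse left out. In HC they numbered 1 with DESeq2 and 2 without a filter, and 0 in every set with a mouse left out. In HH they numbered 3 with DESeq2 (Serpina3n, C3, Cfb) and 3 without a filter (Saa3, Serpina3n, C3), 2 with the likelihood ratio test and 2 with only the compared groups (Saa3 and Serpina3n, with C3 lost at 2.58), and 0 to 1 with a mouse left out. Alternatives chosen after seeing the data gave 0 in HH: an adjusted p under 0.05, and leaving out the mice with spermatid RNA. CPM without TMM factors, also added, separated 2 members in H (Orm1, Serpina3n). Serpina3n differed between the H and HC effects with DESeq2 (1 member) and without a filter (1), and Saa3 between HH and HHC without a filter (1).

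Some signs reversed. C3 in HHC was 0.09 with DESeq2 and with RLE, 0.00 without a filter, 0.15 with halved counts and 0.12 with only the compared groups. Without the spermatid libraries Hp and Serpina3n in HC were 0.12 and 0.22, and Serpina3n was 0.01 without a filter. With a mouse left out, ranges spanning 0 were, for H, −0.03 to 2.34 (Saa3), −0.22 to 1.69 (Lcn2) and −0.72 to 0.71 (C3), for HC −0.41 to 0.33 (Hp) and −0.40 to 0.25 (Serpina3n), for HH −1.74 to 0.46 (Lcn2), and for HHC −3.82 to 1.06 (Saa3), −1.28 to 0.74 (Orm1), −0.61 to 0.91 (C3) and −0.43 to 0.84 (C4b). The cause was not tested.

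For mice with the same replicate number, the r of their deviations from the group means was −0.277 to 0.192. With so few mice a group these deviations depend on each other, so whether such mice shared more than a number cannot be told. With the replicate number as a block, calls numbered 1 in H and HH each and 0 in both WL comparisons, and C3 in HHC was 0.16. Low counts limited what can be said of Saa1 and Cfb.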

Other observations

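The share of each library taken by a single member gives a further view. Hp made up 0.0634 to 0.367% of all counts in the chow mice, 0.202 to 1.16% in H and 0.521 and 0.933% in HH, and 0.121 to 0.251% in HC and HHC. C3 reached 0.182% in mouse 2 of HH and 0.111% in mouse 3 of HC, and was at 0.0126 to 0.0999% in chow mice. No other member reached 0.15% in any mouse.

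Several members share sequence with close relatives, which bounds what their counts can mean. Saa1 shared 31.1% of its 50-base words with Saa2 and 0.4% with Saa3, and Orm1 shared 20.4% with Orm2 and 2.2% with Orm3. Serpina3n shared at most 2.5% with any other gene of the Serpina3 family that was compared.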
